A study of Homo sapiens with 6 samples.

Results

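The genes described here build the machinery that attaches, checks and separates chromosomes in mitosis. They are 58 of the 58735 genes in the count table, found by symbol, and all 58 had enough counts to be tested among 16322 genes. They fall into 8 groups by role, from the inner kinetochore to the anaphase-promoting complex. RNA sequencing compared 3 libraries of LN229 cells overexpressing HSD52 (HSD52_OE) with 3 libraries of LN229 cells labelled as wild type (control). LN229 is an established human glioblastoma cell line, and HSD52 is a long non-coding RNA gene. The labels give neither the vector of the control cells, nor whether the overexpressing cells were 1 clone or a pool, nor whether replicates were separate cultures. All p-values thus describe the scatter among the 6 libraries only, and that scatter may be technical.

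During mitosis the inner kinetochore assembles on centromeric chromatin marked by the histone variant CENP-A, and the outer kinetochore built on it grips the spindle microtubules. Unattached kinetochores run the spindle checkpoint, which holds back CDC20, an activator of the anaphase-promoting complex (APC/C), a ubiquitin ligase. Once the checkpoint is satisfied, the complex marks securin and cyclin B for destruction, separase cuts cohesin, and the sister chromatids part. Most of these genes are transcribed late in the cell cycle, and their RNA peaks around G2 and mitosis.

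Libraries held 17777157 to 18917790 counts. HSD52 itself had 1252, 1336 and 1327 counts in HSD52_OE, against 11, 7 and 12 in control. HSD52_OE libraries had more detected genes (26359 to 26755, against 22855 to 23545 in control), and long non-coding RNA genes took 1.29 to 1.36% of their counts, against 0.795 to 0.895% in control. The nuclear-retained RNA MALAT1 averaged 340 CPM (counts of a gene scaled to a common library size) in HSD52_OE and 62.9 in control. NEAT1, another, averaged 363 and 97.6. Together with KCNQ1OT1, TUG1, NORAD, OIP5-AS1, GAS5 and SNHG1 they summed to 1831 to 2098 CPM in HSD52_OE, against 1068 to 1151 in control. NORAD, the largest term, averaged 727 CPM in HSD52_OE and 531 in control. Of these 8 long non-coding RNAs 6 were higher, OIP5-AS1 was lower and GAS5 did not pass. Of 8 markers of glioma lines, SOX2 (log2 fold change 0.34) and GFAP (0.59) were higher and EGFR (-1.05), S100B (-0.43) and CD44 (-0.30) lower, and VIM, NES and OLIG2 did not pass. GFAP was low, at 7.29 CPM in HSD52_OE and 4.83 in control, and VIM averaged 1200 CPM in HSD52_OE and 1370 in control. All 7 fibroblast markers were lower, summing to 58.57 to 61.4 CPM in HSD52_OE and 140.2 to 235.5 in control. The endothelial marker PECAM1 was lower, with 2, 4 and 4 counts in HSD52_OE and 12, 22 and 14 in control. The leukocyte marker PTPRC had 6, 7 and 6 counts in HSD52_OE and 2, 0 and 1 in control, too few to be tested. CD3E and CDH1, markers of T cells and epithelium, had 0 counts in every library. The part of these differences in the member results was not tested.

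Most of the mitotic genes were more abundant in HSD52_OE. Of the 58 members, 35 were higher (60.3%) and 4 were lower (6.9%) at an adjusted p below 0.05 (edgeR's quasi-likelihood test, p adjusted over the whole table after Benjamini and Hochberg), and 19 did not pass. Of the 16322 genes tested, 25% were higher and 25.6% lower, 50.6% in all. Protein-coding genes alone gave 21.4% higher and 30.1% lower. The median log2 fold change of the members was 0.33, against 0.01 for all genes and -0.06 for protein-coding genes. Changes were moderate: 15 members (25.9%) were higher by at least 1.5-fold, against 16.4% of all genes, and 1 (1.72%) was lower by as much, against 10.4%.

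CPM values here are scaled by the trimmed mean of M-values (TMM). Summed over the members they came to 8056, 7972 and 8100 in HSD52_OE, against 6624, 6461 and 6096 in control, a ratio of 1.26. All 3 HSD52_OE libraries lay above all 3 control libraries. The 3 HSD52_OE values of a gene lay wholly above the 3 control values for 36 members (62.1%, against 29.6% of all genes) and wholly below for 4 members (6.9%, against 29.3%). In bulk RNA, a larger share of cells in late cell cycle and more of these transcripts per cell cannot be told apart. With library totals as the sole scaling, the median over all genes moved to 0.13 on the log2 scale. It gave 42 members higher and 2 lower, and 5337 higher and 2933 lower over all genes, where TMM scaling gave 4086 higher and 4173 lower.

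**Figure D1:**
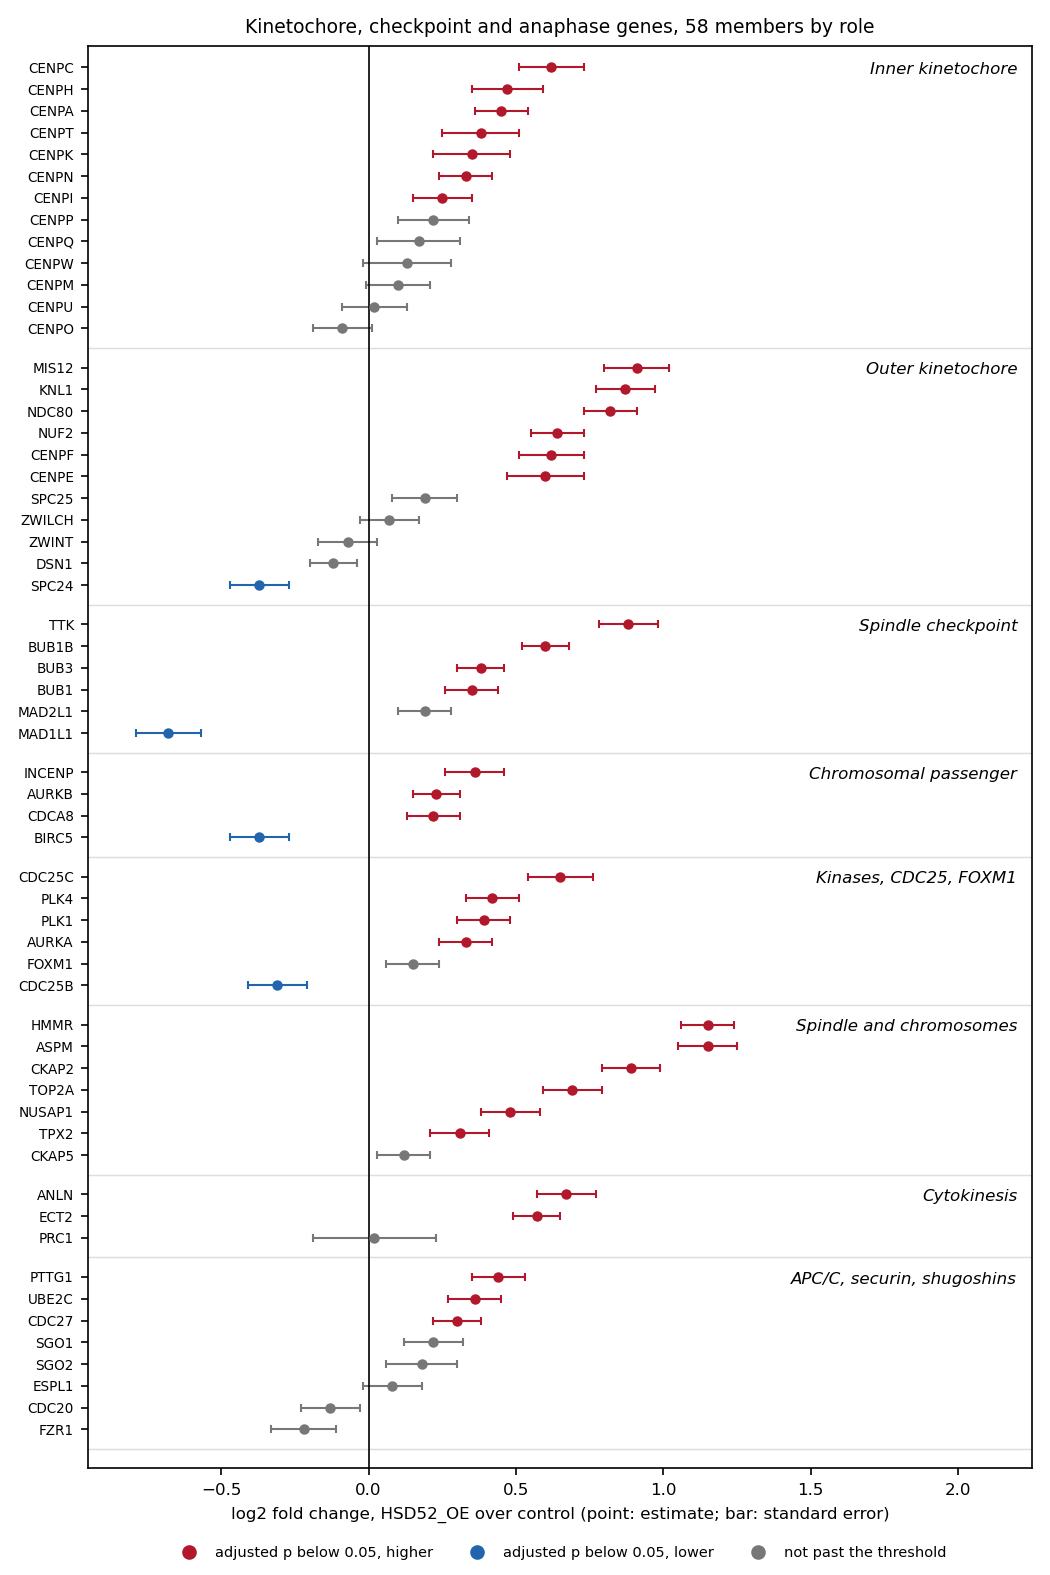
Log2 fold change of each of the 58 members, HSD52_OE over control, with its standard error, grouped by role. The 35 members called higher reach 1.15 at HMMR and ASPM, and the 4 called lower (SPC24, MAD1L1, BIRC5 and CDC25B) reach -0.68 at MAD1L1.

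The promoters of these genes often carry the cell cycle genes homology region (CHR), an element bound by the MuvB subunit LIN54, and the CCAAT box, bound by NF-Y. The CHR letters TTTGAA and the letters of the box were searched on both strands from 250 bases before to 50 after the RefSeq start (GRCh38.p14). Of the 48 members with a promoter in the table, 26 (54.2%) held TTTGAA, against 15.4% of all 27305 promoters and 9.93% of the 10437 of tested protein-coding genes. CCAAT was present in 32 (66.7%), against 35.7% of all promoters, and both elements in 19 (39.6%), against 6.08%. The CHR and CCAAT letters share bases in 1 member. TTTGAA was found in 17 of 28 members called higher (60.7%), in 9 of 17 not called (52.9%) and in 0 of 3 called lower. CCAAT was found in 18 of 28 members called higher (64.3%), in 13 of 17 not called (76.5%) and in 1 of 3 called lower, and the pair TTTGAA with a CCAAT box in 12 (42.9%), 7 (41.2%) and 0. The first 120 bases upstream of the start are shown for 4 members called higher, 2 not called and 2 called lower, so that promoters of different outcome can be read side by side. They were picked, and do not stand for their groups: the 4 called higher all hold TTTGAA, where 17 of 28 such members do. BIRC5, also called lower, has no promoter in the table. Capitals mark TTTGAA and CCAAT on either strand, not the CHR variants.
HMMR, chr5:163460512-163460631, plus strand: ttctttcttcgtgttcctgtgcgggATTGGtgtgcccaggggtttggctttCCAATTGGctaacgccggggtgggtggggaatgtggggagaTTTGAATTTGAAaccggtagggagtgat
ANLN, chr7:36389742-36389861, plus strand: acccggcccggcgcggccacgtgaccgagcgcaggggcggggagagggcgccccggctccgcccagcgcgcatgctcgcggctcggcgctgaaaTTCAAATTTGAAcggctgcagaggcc
BUB1B, chr15:40160949-40161068, plus strand: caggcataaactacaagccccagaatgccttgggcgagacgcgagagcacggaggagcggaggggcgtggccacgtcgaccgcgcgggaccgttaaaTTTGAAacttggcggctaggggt
PLK1, chr16:23678769-23678888, plus strand: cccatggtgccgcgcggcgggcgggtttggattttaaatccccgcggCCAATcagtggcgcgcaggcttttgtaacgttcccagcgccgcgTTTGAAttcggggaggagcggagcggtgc
CDC20, chr1:43358861-43358980, plus strand: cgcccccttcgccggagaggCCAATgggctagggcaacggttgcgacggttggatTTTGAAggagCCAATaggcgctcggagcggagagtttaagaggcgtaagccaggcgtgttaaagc
ESPL1, chr12:53268179-53268298, plus strand: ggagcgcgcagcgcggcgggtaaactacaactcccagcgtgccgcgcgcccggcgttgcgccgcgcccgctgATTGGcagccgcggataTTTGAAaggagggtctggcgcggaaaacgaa
SPC24, chr19:11155783-11155902, minus strand: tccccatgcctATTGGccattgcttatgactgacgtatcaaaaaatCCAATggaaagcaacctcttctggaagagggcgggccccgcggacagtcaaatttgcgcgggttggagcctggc
MAD1L1, chr7:2232946-2233065, minus strand: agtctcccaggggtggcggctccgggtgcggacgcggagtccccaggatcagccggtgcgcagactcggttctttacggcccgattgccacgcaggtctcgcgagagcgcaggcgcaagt
HMMR carries 2 adjoining copies of TTTGAA close to the start and ANLN a copy on each strand, while CDC20 and ESPL1, whose RNA was not called, carry it as well. SPC24 shows CCAAT letters alone, and MAD1L1 neither element in these 120 bases.

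The inner kinetochore group holds 13 genes, of which 7 were higher (53.8%, against 25% of all genes) and none lower (against 25.6%). Its median log2 fold change was 0.25. CENPA, the centromeric histone itself, had 63, 59 and 63 CPM in HSD52_OE, against 40.6, 50.7 and 44.5 in control. Its groups did not overlap, and the log2 fold change was 0.45 ± 0.09 (SE, adjusted p = 0.00108, edgeR's quasi-likelihood test). CENPC, which binds the CENP-A nucleosome and anchors the outer plate, had 27.3, 24.7 and 24.5 CPM in HSD52_OE, against 17, 15.1 and 17.6 in control, the highest log2 fold change of the group at 0.62 ± 0.11. CENPN, another reader of the CENP-A nucleosome, rose by 0.33 and CENPH, of the CENP-H/I/K/M subcomplex, by 0.47 on the log2 scale.

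CENPI, CENPK and CENPT passed with less margin, and lost their calls in 9, 6 and 4 of 15 alternative analyses. For CENPI these included DESeq2 (adjusted p = 0.0727, Wald test) and no filter (adjusted p = 0.19, edgeR's quasi-likelihood test). CENPT, a histone-fold protein that recruits NDC80, had 26, 27.8 and 24.3 CPM in HSD52_OE, against 17.6, 24.4 and 17.9 in control, so that control replicate 2 reached into the HSD52_OE range. CENPK likewise overlapped, with 27.6 CPM in control replicate 3 inside the 27.1 to 29.3 of HSD52_OE. Leaving out 1 library ended their calls: the adjusted p was 0.0531 to 0.19 for CENPI without any one HSD52_OE library or control replicate 2 or 3. For CENPK it was 0.0501 to 0.16 without any one HSD52_OE library or control replicate 1 or 2. For CENPT it was 0.0517 to 0.0992 without HSD52_OE replicate 1 or 2 or control replicate 1 or 3 (all edgeR's quasi-likelihood test). CENPO, CENPP, CENPQ and CENPU, of the subcomplex that helps kinetochores recruit PLK1, did not pass, with log2 fold changes of -0.09, 0.22, 0.17 and 0.02. ITGB3BP (CENP-R), a further subunit outside the 58 genes and named after its values were seen, was higher (0.44, adjusted p = 0.00658). CENPM and CENPW, the partner of CENPT, stood at 0.10 and 0.13, and CENPW passed without control replicate 2 (0.35, adjusted p = 0.0268).

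The outer kinetochore group of 11 genes was split within its complexes, with a median log2 fold change of 0.60. In it 6 were higher (54.5%, against 25% of all genes) and SPC24 was lower (9.09%, against 25.6%). The NDC80 complex is a rod whose NDC80 and NUF2 ends hold microtubules and whose SPC24 and SPC25 ends sit on the kinetochore. NDC80 had 50.5, 47.4 and 49.7 CPM in HSD52_OE, against 28.4, 26.2 and 28.7 in control, and NUF2 had 70.2, 65.5 and 74.3 against 40.6, 45.7 and 48.6. Both microtubule-binding subunits were separated between the groups. SPC24 had 30.6, 28.2 and 31.5 CPM in HSD52_OE, against 36.5, 44.3 and 35.6 in control, with a log2 fold change of -0.37 ± 0.10 (adjusted p = 0.00839, edgeR's quasi-likelihood test). SPC24 was lower in all 3 HSD52_OE libraries than in any control library, and its call was lost without HSD52_OE replicate 2 (adjusted p = 0.0558) and with scaling by library totals (-0.24, adjusted p = 0.0656). SPC25 was not called at 0.19, and passed without control replicate 3 (0.27, adjusted p = 0.0348). Per kilobase of exon, SPC24 stood at 0.768, 0.756 and 0.805 of NDC80 in HSD52_OE, against 1.63, 2.14 and 1.57 in control. This ratio, like the others below, was picked after the values were seen and was not tested. Exon length sums all annotated exons of a gene, whichever transcripts were made. The level of such a ratio is thus uncertain, and its difference between the groups is what can be read.

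KNL1, the scaffold that receives the checkpoint proteins, had 120, 107 and 107 CPM in HSD52_OE, against 71.7, 56 and 55.3 in control. MIS12, which gives its name to the complex joining the inner and outer plates, had 62.7, 66.7 and 61.8 in HSD52_OE, against 28.7, 32.5 and 40.3 in control. Their log2 fold changes were 0.87 ± 0.10 and 0.91 ± 0.11 (adjusted p = 6.93e-06 and 8.3e-06, edgeR's quasi-likelihood test). Other subunits differed from them. DSN1, of the MIS12 complex, had 80.3, 79.3 and 75.7 CPM in HSD52_OE and 79.6, 91 and 85.9 in control and did not pass, though it did as lower after correction for base composition (-0.24, adjusted p = 0.0074). Neither ZWINT nor ZWILCH passed. ZWINT, which binds KNL1, stood at a log2 fold change of -0.07, and ZWILCH, of the RZZ complex that brings dynein to kinetochores, at 0.07. The corona proteins CENPE, a kinesin that carries chromosomes to the spindle equator, and CENPF, a large microtubule-binding protein, rose by 0.60 and 0.62 on the log2 scale. CENPF had 550, 501 and 439 CPM in HSD52_OE, against 366, 303 and 300 in control.

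**Figure D2:**
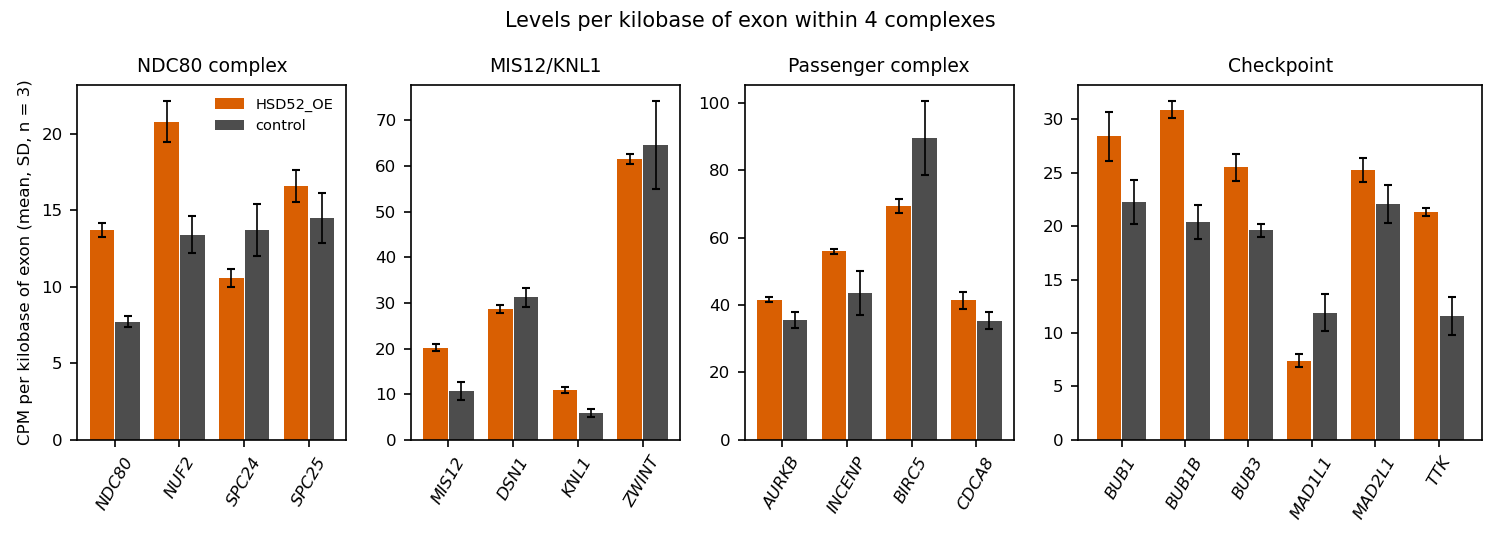
Mean CPM per kilobase of exon with SD (n = 3 libraries) for subunits of the NDC80 and MIS12/KNL1 complexes, the chromosomal passenger complex and the checkpoint, HSD52_OE left and control right in each pair. SPC24, BIRC5 and MAD1L1 are lower in HSD52_OE while NDC80, INCENP and TTK are higher.

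Of the 6 checkpoint genes 4 were higher (66.7%, against 25% of all genes) and 1 was lower (16.7%, against 25.6%). TTK, the kinase that starts the checkpoint signal, had 99.5, 97.2 and 96.1 CPM in HSD52_OE, against 57.1, 43.9 and 58.5 in control (log2 fold change 0.88 ± 0.10, adjusted p = 5.8e-06, edgeR's quasi-likelihood test). BUB1B, the BubR1 subunit of the mitotic checkpoint complex, had 134, 140 and 141 CPM in HSD52_OE, against 99.5, 88 and 87 in control. Neither gene's groups overlapped. BUB3, which docks BUB1 and BUB1B on KNL1, rose by 0.38, and the kinase BUB1 by 0.35 on the log2 scale, though BUB1 missed the threshold without HSD52_OE replicate 3 (0.27, adjusted p = 0.0535).

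The MAD1 and MAD2 proteins act as a pair, MAD1 being the platform on which MAD2 takes its active form. MAD1L1 had 50.1, 52.1 and 58.8 CPM in HSD52_OE, against 90.1, 96.1 and 71.8 in control. Its log2 fold change was -0.68 ± 0.11 (adjusted p = 9.59e-05, edgeR's quasi-likelihood test), and no HSD52_OE library reached the lowest control library. MAD2L1 had 141, 142 and 153 CPM in HSD52_OE and 117, 126 and 138 in control, separated but not past the threshold (adjusted p = 0.0684), and past it without control replicate 3 (0.25, adjusted p = 0.0111). Per kilobase, MAD1L1 was 0.282, 0.292 and 0.305 of MAD2L1 in HSD52_OE, against 0.61, 0.605 and 0.415 in control. MAD1L1 was the 1 member lower by at least 1.5-fold, and its call held in all 15 alternative analyses, with log2 fold changes between -0.80 and -0.40.

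**Figure D3:**
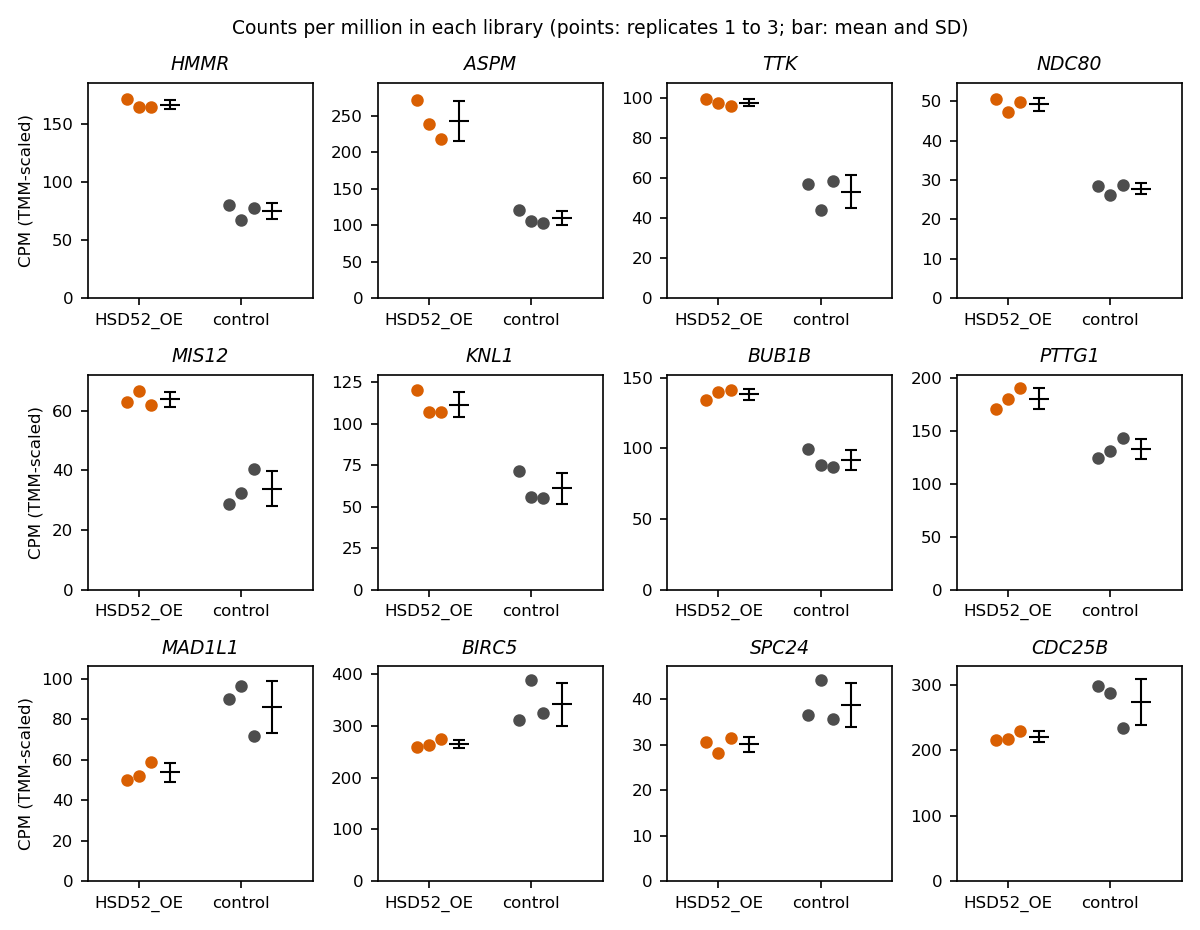
TMM-scaled CPM of 12 members, picked after their values were seen, in each library (points), HSD52_OE left and control right, with the mean and SD beside them. MAD1L1, BIRC5, SPC24 and CDC25B lie lower in HSD52_OE and the other 8 higher.

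The chromosomal passenger complex corrects faulty attachments. Of its 4 genes 3 were higher and 1 lower, so that the summed CPM, 711.1 ± 18.4 in HSD52_OE and 704.5 ± 53.6 in control (SD, n = 3), overlapped. INCENP, the scaffold, had 251, 247 and 254 CPM in HSD52_OE, against 227, 191 and 169 in control. The kinase AURKB and borealin (CDCA8) rose by 0.23 and 0.22 on the log2 scale, and both calls were lost without any one HSD52_OE library or control replicate 3 (adjusted p 0.058 to 0.122 for AURKB and 0.0734 to 0.209 for CDCA8, edgeR's quasi-likelihood test). BIRC5 (survivin), which targets the complex to centromeres, had 259, 262 and 274 CPM in HSD52_OE, against 311, 389 and 325 in control (log2 fold change -0.37 ± 0.10, adjusted p = 0.005). The HSD52_OE libraries lay below every control library, and the call held in all 15 alternatives. BIRC5 per kilobase was 1.65 to 1.69 of AURKB in HSD52_OE and 2.22 to 2.75 in control.

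Among the mitotic regulators, PLK1, a kinase of mitotic entry and kinetochore attachment, had 259, 254 and 284 CPM in HSD52_OE, against 215, 214 and 179 in control (log2 fold change 0.39 ± 0.09, adjusted p = 0.00252, edgeR's quasi-likelihood test). AURKA, the centrosome kinase, rose by 0.33 and PLK4, which licenses centriole duplication, by 0.42 on the log2 scale. The CDC25 phosphatases that activate CDK1 went opposite ways. CDC25C had 30.5, 34.6 and 37.6 CPM in HSD52_OE, against 23.6, 20 and 21.9 in control (0.65 ± 0.11). CDC25B had 215, 217 and 230 CPM in HSD52_OE, against 299, 288 and 234 in control (-0.31 ± 0.10, adjusted p = 0.0151). Control replicate 3 lay just above the HSD52_OE range, and the CDC25B call was lost without HSD52_OE replicate 1 or 2 (adjusted p = 0.0688 and 0.0699), with library totals (0.101) and after correction for base composition (0.172). FOXM1, a transcription factor that drives late cell cycle genes, was not called, with 213, 219 and 217 CPM in HSD52_OE and 197, 219 and 170 in control, and passed without control replicate 2 (0.23, adjusted p = 0.0361), with library totals (0.27, adjusted p = 0.0164) and after correction for base composition (0.29, adjusted p = 0.00161).

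The spindle and chromosome group had the highest median log2 fold change of the 8 role groups, 0.69. Of its 7 genes 6 were higher (85.7%, against 25% of all genes) and 0 lower (against 25.6%). The group's summed CPM was 2107, 2081 and 2120 in HSD52_OE against 1549, 1327 and 1340 in control. ASPM, which focuses spindle poles, had 272, 239 and 218 CPM in HSD52_OE, against 120, 105 and 103 in control. HMMR, a spindle assembly factor, had 171, 164 and 164 in HSD52_OE, against 79.7, 67.1 and 77.3 in control. Both had log2 fold changes of 1.15, the highest of all members, with no overlap between groups. CKAP2, a microtubule-stabilising protein, had 151, 151 and 148 CPM in HSD52_OE, against 89.1, 68.6 and 85.4 in control. TOP2A, which untangles sister DNA, had 673, 688 and 686 CPM in HSD52_OE, against 470, 379 and 416 in control. NUSAP1, a microtubule bundler, rose by 0.48. TPX2, the activator of AURKA, rose by 0.31, though not without HSD52_OE replicate 3 (0.27, adjusted p = 0.0841). CKAP5, a microtubule polymerase, had 245, 247 and 259 CPM in HSD52_OE and 259, 214 and 217 in control, and passed without control replicate 1 (0.20, adjusted p = 0.0406).

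In cytokinesis, ANLN, the scaffold of the contractile ring, had 406, 397 and 379 CPM in HSD52_OE, against 284, 221 and 240 in control, and ECT2, which switches on RhoA at the cell equator, rose by 0.57 on the log2 scale. PRC1, the bundler of the central spindle, was listed at 2.59 to 2.91 CPM in HSD52_OE and 2.61 to 2.92 in control. This value is uncertain, since 57.6% of its exon bases also belong to the annotated gene AC068831.7 on the same strand, which had 744 counts in HSD52_OE and 252 in control.

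The anaphase genes had the lowest median log2 fold change of the 8 role groups, 0.20. Of the 8 genes 3 were higher (37.5%, against 25% of all genes) and none was lower (against 25.6%). PTTG1 (securin), the separase inhibitor destroyed at anaphase, had 170, 180 and 190 CPM in HSD52_OE, against 124, 131 and 143 in control (0.44 ± 0.09, adjusted p = 0.000565, edgeR's quasi-likelihood test). UBE2C, the ubiquitin-conjugating enzyme of the APC/C, rose by 0.36 and CDC27, one of its subunits, by 0.30 on the log2 scale. Both activators of the complex had negative fold changes that did not pass. CDC20 had 274, 270 and 301 CPM in HSD52_OE and 312, 349 and 267 in control, and FZR1 (CDH1) had 77.3, 69.4 and 76.2 in HSD52_OE and 90.6, 99.1 and 69.5 in control. Control replicate 3 was the low one of its group in both, and without it both passed as lower (-0.24, adjusted p = 0.0223, and -0.36, adjusted p = 0.00198). Separase (ESPL1) stood at 0.08, with 147, 151 and 143 CPM in HSD52_OE and 156, 143 and 119 in control, and passed as higher after correction for base composition (0.25, adjusted p = 0.0034). The shugoshins, which protect centromeric cohesin, stood at 0.22 (SGO1, past the threshold without control replicate 3, 0.28, adjusted p = 0.0231) and 0.18 (SGO2).

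Other genes of the same processes were read from lists chosen with earlier results of these data known. Of 21 further kinetochore and centromere genes, 6 were higher and 4 lower: KNTC1, the partner of ZWILCH in the RZZ complex, rose by 0.68, CENPJ, a centriole protein despite its name, by 0.76, while CENPB, which binds centromeric satellite DNA, fell by 0.76 and NSL1, of the MIS12 complex, fell by 0.45. Of 15 other APC/C genes and inhibitors, 3 were higher, led by FBXO5 (EMI1, an APC/C inhibitor, 0.63) and ANAPC15 (0.37), and 2 were lower, ANAPC11 (-0.77) and UBE2S (-0.57), the catalytic subunit and the chain-elongating enzyme. Condensin, which compacts chromosomes, had 5 of 8 subunits higher, such as SMC2 (0.48) and NCAPG (0.41), and NCAPD3 lower (-0.42). Cohesin had 2 of 14 higher (STAG1, 0.47, and STAG2, 0.37) and PDS5A lower (-0.29). Of 15 mitotic entry genes 9 were higher, including WEE1 (0.84), the kinase that restrains CDK1, and CCNB1 (0.66), its cyclin, and 2 were lower, ENSA (-0.22) and CDC25A (-0.26).

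Regulators and S-phase genes had other shares: 7.14% higher and 35.7% lower for the regulators, and 0% higher and 60.7% lower for replication genes. Of 14 DREAM, MuvB and B-MYB genes, which repress or activate late cell cycle promoters, LIN54 was higher (0.39) and 5 were lower, among them TFDP1 (-0.68) and MYBL2 (-0.63). Of 28 replication genes none was higher and 17 were lower, MCM6 (-0.71) of the replicative helicase and CDT1 (-0.86) of origin licensing having the smallest p-values, and their summed CPM was 2997 ± 47.6 in HSD52_OE and 3777 ± 167 in control (SD, n = 3).

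**Figure D4:**
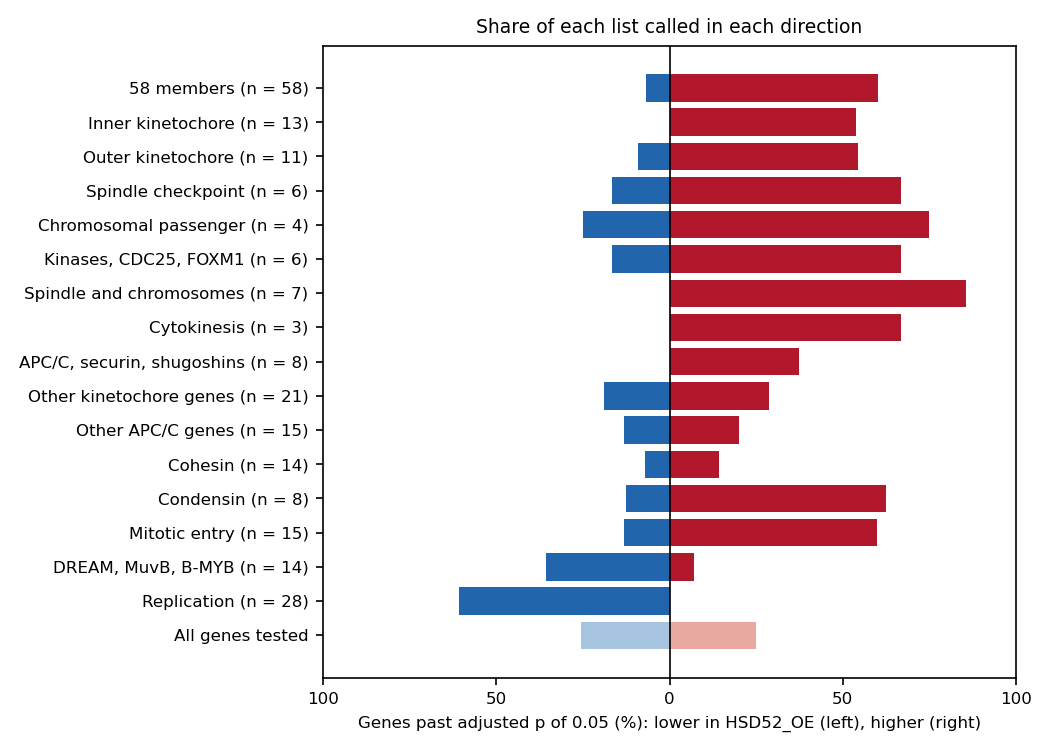
Percent of tested genes in each list that passed an adjusted p of 0.05, lower in HSD52_OE to the left and higher to the right. The members (60.3% higher, 6.9% lower) stand beside their role groups, related lists and all genes tested (25% higher, 25.6% lower).

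Fold change moved with base composition. Across the 58 members, the log2 fold change and the G+C content of the longest annotated transcript had a Pearson r of -0.56 and a Spearman rho of -0.47, against -0.19 and -0.29 across 13148 protein-coding genes. These are descriptions across genes, which share libraries and are not independent. The 29 members of lower G+C content (32.9 to 42.5%) had 21 higher and 0 lower, and the 29 of higher content (42.6 to 64%) had 14 higher and all 4 lower. After a correction for G+C content and length, chosen after the data were seen, 36 members were higher and 4 lower, with a median log2 fold change of 0.29. MAD1L1 remained lower at -0.40 (adjusted p = 0.000389, edgeR's quasi-likelihood test), while CDC25B (-0.11, adjusted p = 0.172) no longer passed and DSN1 became lower. CENPI (0.15, adjusted p = 0.156), CENPK (0.08, adjusted p = 0.457) and CDC27 (0.12, adjusted p = 0.096) dropped out of the members called higher. CENPM (0.23, adjusted p = 0.0326), CENPP (0.30, adjusted p = 0.0338), FOXM1 and ESPL1 joined them.

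**Figure D5:**
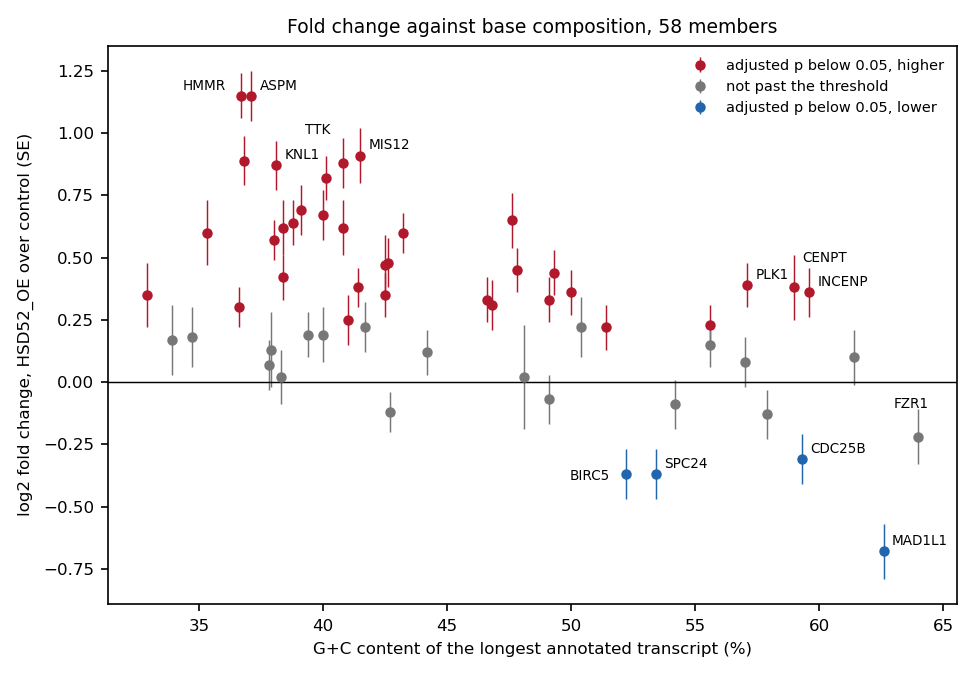
Log2 fold change, HSD52_OE over control, with standard error against the G+C content of the longest annotated transcript for the 58 members. Members from 32.9 to 42.5% G+C hold 21 genes called higher and 0 lower, and those from 42.6 to 64% hold 14 higher and 4 lower.

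Neighbouring genes were counted for every member, against the 25% higher and 25.6% lower of all genes, and are given for all members called lower. Of 22 tested genes within 1 Mb of BIRC5, 13 were lower and 1 higher, and of 25 around CDC25B, 14 were lower and 1 higher. MAD1L1 had 12 lower and 4 higher of 29, and SPC24 had 20 lower and 9 higher of 60. Among members called higher, some lay among higher genes: MIS12 had 21 higher and 5 lower of 41, CENPI 12 and 0 of 19, and PLK1 7 and 0 of 12. Others lay among lower genes: CENPA had 6 higher and 15 lower of 39, and ASPM 0 and 4 of 6, with a median log2 fold change of -0.82. These members called higher were picked after the values were seen. Over the 52 members with at least 5 tested neighbours, the member's log2 fold change and its neighbours' median had a Pearson r of 0.13 and a Spearman rho of 0.18, given as a description. Spread between libraries also differed between the groups: the SD was 4.26% of the mean in HSD52_OE and 11.2% in control at the median member, and smaller in HSD52_OE for 44 of 58. Over all genes with enough counts, scatter was smaller in HSD52_OE too, read by another measure than the SD. Chi-square per degree of freedom between 2 libraries of a group was 2.23 to 3.51 in HSD52_OE and 15.1 to 18.6 in control. Exon bases were shared with another gene by 23 members and reached 10% in 12, among them NUSAP1 (62.2%), CENPP, CENPO, CENPN, CENPT and FOXM1 (15.9%, shared with ITFG2). The values of these 12 are uncertain. For NUSAP1 (AC087721.2, listed with 0 counts), BUB1B (BUB1B-PAK6, 0 counts) and most of the overlap of PRC1 the other gene lies on the same strand, where a strand setting cannot separate reads. For the other 9 it lies on the opposite strand, and the strand setting of the counting is unknown here.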

How the data were processed

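Poly(A)-selected RNA of 6 LN229 libraries was sequenced, and the authors deposited raw read counts per gene, not normalized. CASAVA called bases, HISAT2 2.0.5 aligned reads to hg38 and featureCounts 1.5.0-p3 counted them, per the submitters' processing notes. Not given in the sources used here: strand setting, annotation release. Gene positions and lengths in the table equal those of GENCODE 29, which supplied exon overlap and G+C content.

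Genes were filtered with filterByExpr (16322 kept), scaled by TMM and tested with edgeR 4.0.16 (quasi-likelihood, robust, 2-sided) in R 4.3.3, with Benjamini-Hochberg adjustment over all of them at 0.05. Every adjusted p in the text comes from this test unless another tool is named. CPM uses TMM-scaled totals of tested genes. The procedure was also run on counts simulated from its own model. That run cannot show how the test behaves with unequal scatter between groups or dependent replicates. Every member was named, and of each pathway list the 2 genes past the threshold with the lowest p, higher and lower alike. Members and lists were chosen with earlier results of these data known.

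Promoters came from RefSeq (GRCh38.p14), with the first entry used for the 11 members that have several. BUB3, TTK, CENPM, AURKA, UBE2C, CENPH, KNL1, BIRC5, TPX2 and FOXM1 have no entry in the table. Alternatives were RLE size factors, library totals, other filters, DESeq2 1.42.0, limma-voom 3.58.1, a replicate block, protein-coding genes alone, leaving out each library, and a G+C and length correction added after the data were seen.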

Additional observations from a re-analysis of the deposited data

How the results depend on the processing

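Across 15 alternatives, 27 of the 35 members called higher and 2 of the 4 called lower (MAD1L1 and BIRC5) kept their calls throughout. Counts of members higher ranged from 29 to 35 and lower from 2 to 6 when single libraries were left out, and the count lower was 2 with library totals. No member past the threshold changed sign. Of those not past it, the log2 fold change reversed with library totals for CENPO (0.03) and ZWINT (0.06). It reversed with no filter for CENPU (-0.02) and PRC1 (-0.02). After G+C and length correction it reversed for CENPO (0.03), CENPQ (-0.20), CENPU (-0.16), CENPW (-0.28), SPC25 (-0.03), ZWILCH (-0.08), FZR1 (0.11) and SGO2 (-0.03). Leaving out single libraries spanned -0.20 to 0.01 for CENPO, -0.10 to 0.16 for CENPU, -0.06 to 0.35 for CENPW, -0.14 to 0.05 for ZWINT, -0.02 to 0.16 for ZWILCH, -0.02 to 0.06 for PRC1 and -0.03 to 0.15 for ESPL1. The cause was not tested. Same-numbered replicates had correlations of 0.03 to 0.04, too low to pair them. Each library correlated best with its own number. Values were centred within each group, so these correlations are not independent and cannot show pairing. With the replicate block, 34 members were higher and 4 lower, CENPI missing the threshold (adjusted p = 0.0579), and 4210 and 4226 of all genes. PRC1 has the fewest counts of the members, 159 in HSD52_OE and 144 in control. Its value is limited by the exon bases it shares with AC068831.7 as well as by its counts.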
